A study of Mus musculus with 4 samples.

Results

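The genes described here mostly encode enzymes and complexes that modify, read or move nucleosomes. They were chosen by symbol alone: names that begin with Kdm, Hdac, Sirt, Kat, Brd, Chd or Arid followed by a digit, or with Smarc. Of 23420 genes listed in the data, 83 were members, with 17 in the Kdm family, 14 Smarc, 11 Hdac, 10 Chd, 10 Arid, 7 Kat, 7 Brd and 7 Sirt. One of the Smarc entries, Smarca5-ps, is a processed pseudogene of Smarca5. Counting could have split reads between them, which was not tested, so its values are uncertain. All 83 members passed the minimum of 100 reads over the 12 replicates, with 287 to 213976 reads each.

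The cells came from cochleae of Atoh1-GFP transgenic mice of the CD1 strain at postnatal day 1, in which GFP is driven by an Atoh1 enhancer and marks the sensory hair cells. Organs were cultured overnight with penicillin in all 4 groups, left untreated or given 0.5 mM gentamicin for 3 h, dissociated and sorted into GFP-positive hair cells and GFP-negative non-hair cells, and polyadenylated RNA was sequenced in 3 replicates per group. Gentamicin is an aminoglycoside antibiotic that damages hair cells. Cells with weak GFP were left out by the sort, and the non-hair cells were a mixture of supporting cells, other cochlear epithelium and surrounding tissue. Reads were given as normalized read scores, in which reads are scaled per replicate and 1 is added, without division by gene length, and changes are given as the difference of log2 scores. The study speaks of biological replicates, but the labels do not say whether they came from separate cultures, so the tests measure the spread between these replicates.

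DNA is wound on histone proteins, and acetylation of histone tails by lysine acetyltransferases (Kat) is generally linked to open, active chromatin. Histone deacetylases (Hdac) and the NAD-dependent sirtuins (Sirt) take acetyl groups off, lysine demethylases (Kdm) take methyl groups off, and bromodomain proteins (Brd) bind acetylated lysines. Many of the Smarc and Chd genes and some of the Arid genes encode subunits of remodeling complexes that use ATP to slide or evict nucleosomes. Among them the BAF complexes, built on Smarca4 or Smarca2, exchange subunits as cells differentiate, and mutations in CHD7, a remodeler of the ear, cause CHARGE syndrome with inner ear malformation.

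Reads recovered from the scores numbered 22396377 to 28143329 per replicate. All 10 hair cell markers were higher in control hair cells than in control non-hair cells, with summed scores of 11824 to 12256 against 283 to 289. In treated hair cells the sum was lower, at 9928 to 11082, with 0 of the 10 called. Summed scores of 8 mesenchymal markers were 296 to 611 in control and 165 to 242 in treated hair cells, and those of 10 supporting cell markers were 1901 to 2271 and 1000 to 1625. The latter list did not set the populations apart: its sum was 1272 to 1919 in control non-hair cells, and 3 of its genes were higher and 2 lower in control hair cells. No mesenchymal or supporting cell marker was at 0 in either. Sums over 8 Schwann cell and glial markers were 242 to 304 and 123 to 208, and those over 8 macrophage markers, Aif1 and Tyrobp near 0 among them, 4.75 to 5.90 and 15.6 to 21.7. Of these 8 only Cd68 was called, at 2.43 ± 0.36 and 14.1 ± 3.5, and the median log2 difference was 0.05. Replicates lay apart by a root mean square log2 difference of 0.21 to 0.34 in hair cells and of 0.26 to 0.53 in non-hair cells, the widest being between gentamicin replicates 2 and 3 of the non-hair cells. Counts for the non-hair cells are also given without replicate 2.

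In hair cells, 3 h of gentamicin changed 20 of the 83 members, of which 13 rose and 7 fell, at an unadjusted p under 0.01 in limma with a fold change above 1.2. This is 24.1% of the members, against 27.5% of the 16076 genes tested (12.7% up and 14.8% down). At a limma adjusted p under 0.05 with no fold threshold, 33 members passed, 20 up and 13 down, against 33.2% of all genes (14.8% and 18.4%). The replicates of the groups did not overlap for 46 members, 24 higher and 22 lower with gentamicin, against 54.8% of all genes (21.7% and 33.1%). The median log2 change was 0.00 over the members and -0.09 over all genes tested. The share of members called was near that of all genes. With scores rescaled by total reads 27 members were called, 22 up and 5 down, against 27.2% of all genes, and the median of all genes was -0.01. In sorted bulk samples such as these, a change in the share of one kind of cell and a change of RNA within it cannot be told apart.

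Kdm, Kat, Brd and Sirt genes had calls only upward, and the other families had calls downward. Up and down calls numbered 4 and 0 of 17 among Kdm, 2 and 0 of 7 among Kat, 2 and 0 of 7 among Brd and 1 and 0 of 7 among Sirt. They numbered 0 and 1 of 11 among Hdac, 1 and 2 of 14 among Smarc, 1 and 2 of 10 among Chd, and 2 and 2 of 10 among Arid. Over all genes tested, 12.7% were called up and 14.8% down. Family medians were 0.11 for Kat, 0.06 for Kdm, 0.03 for Arid, 0.02 for Sirt, 0.00 for Hdac, -0.02 for Brd, -0.10 for Smarc and -0.11 for Chd. The median of all genes was -0.09, so those of Smarc and Chd were near it. With scores rescaled by total reads, the Brd median turned positive at 0.07, while those of Chd and Smarc came to -0.01 and 0.00. The median of all genes was then -0.01, and Hdac had 1 call up and 0 down. These are counts of few genes, and no test between families was made.

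**Figure D1:**
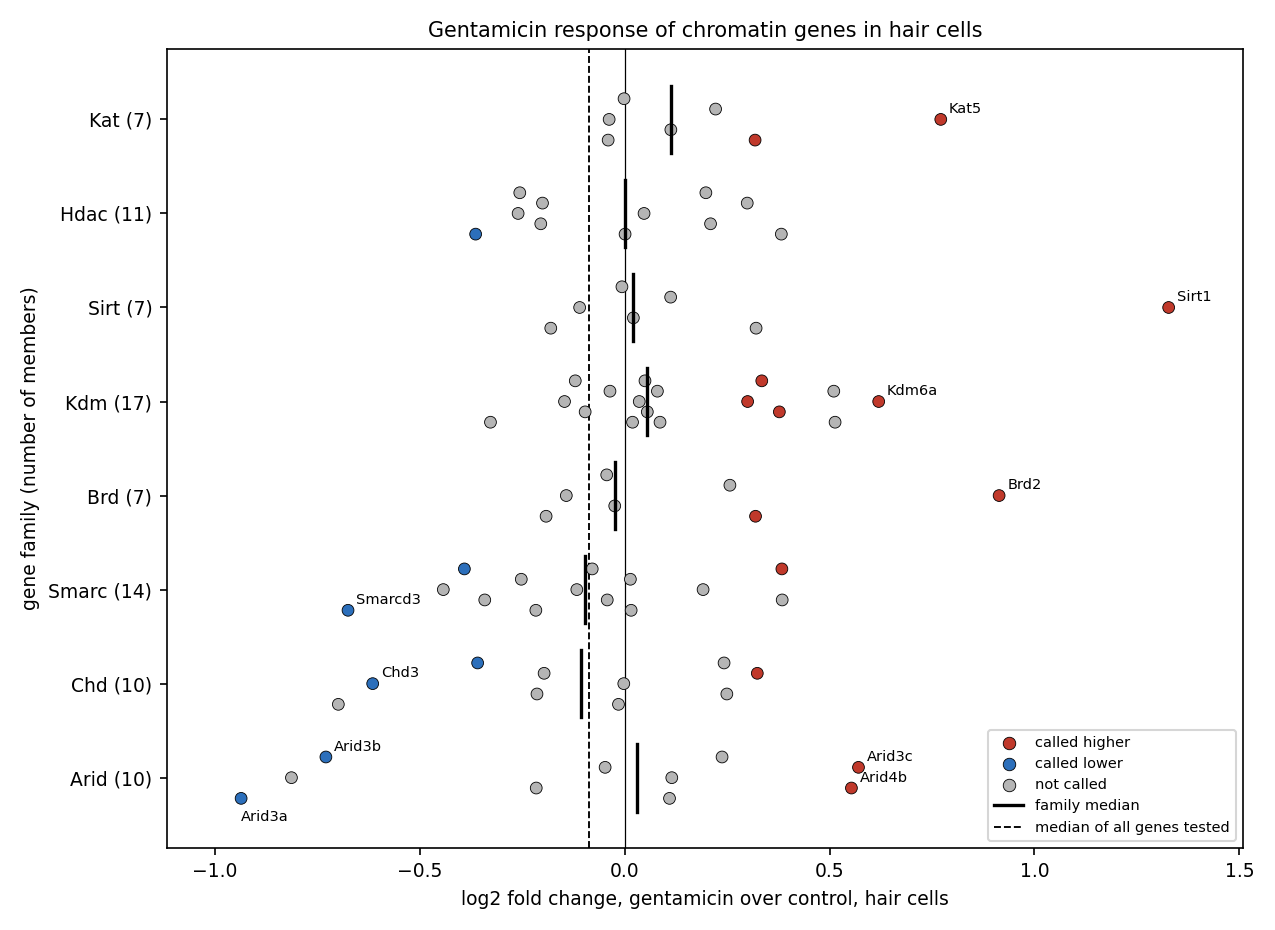
Log2 fold change with gentamicin in hair cells (horizontal axis) for each of the 83 members, by family (vertical axis). Red points were called higher, blue points lower and grey points not called. Short bars are family medians and the dashed line is the median of all genes tested, -0.09. Sirt1, Brd2, Kat5 and Kdm6a lie farthest to the right, at 1.33, 0.91, 0.77 and 0.62, and Arid3a farthest to the left, at -0.94.

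The 4 members that rose most came from 4 families, and the sequences before their start sites are shown so that genes that moved together can be read side by side. RefSeq promoter windows of GRCm38.p6, from 250 bases before to 50 after a start, matched 63 members and 11579 of the genes tested. The 250 bases before the start are printed 5′ to 3′ on the strand of the gene, in lower case, with an E-box (CACGTG) or the palindromic motif of the factor NRF1 in capitals. The table held 3 starts for Brd2 and 2 for Kat5, of which 1 is shown. The 1 start held for Sirt1 lies inside the GENCODE span of the gene given below, not at its 5′ end.

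Sirt1, chr10:63339036-63339285, minus strand: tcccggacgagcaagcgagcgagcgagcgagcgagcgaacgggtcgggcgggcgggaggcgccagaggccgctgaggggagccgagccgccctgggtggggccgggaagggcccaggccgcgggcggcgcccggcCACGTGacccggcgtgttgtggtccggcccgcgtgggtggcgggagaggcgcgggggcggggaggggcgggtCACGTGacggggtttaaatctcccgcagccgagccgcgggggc

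Brd2, chr17:34122608-34122857, minus strand: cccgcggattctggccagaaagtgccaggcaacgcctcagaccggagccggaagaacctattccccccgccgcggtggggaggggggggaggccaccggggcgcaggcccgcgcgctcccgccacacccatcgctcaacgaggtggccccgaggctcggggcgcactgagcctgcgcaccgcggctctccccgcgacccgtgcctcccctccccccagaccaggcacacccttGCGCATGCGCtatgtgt

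Kat5, chr19:5610095-5610344, minus strand: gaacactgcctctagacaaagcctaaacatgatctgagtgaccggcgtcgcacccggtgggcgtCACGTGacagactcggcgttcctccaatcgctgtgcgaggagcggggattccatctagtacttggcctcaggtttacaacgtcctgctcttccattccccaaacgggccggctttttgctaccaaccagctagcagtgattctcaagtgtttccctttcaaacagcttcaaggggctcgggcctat

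Kdm6a, chrX:18162325-18162574, plus strand: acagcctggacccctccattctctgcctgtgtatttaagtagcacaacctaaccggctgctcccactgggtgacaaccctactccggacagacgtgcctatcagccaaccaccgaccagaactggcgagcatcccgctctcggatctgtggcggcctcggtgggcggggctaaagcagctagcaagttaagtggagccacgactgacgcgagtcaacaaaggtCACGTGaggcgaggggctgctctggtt

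In these sequences Sirt1 held 2 E-boxes, at 115 and 43 bases before its start, while Kat5 held 1 at 186 and Kdm6a 1 at 27. The Brd2 window held no E-box and an NRF1 motif at 17 bases before the start. Among the 11 risen members with a window, 3 held an E-box, against 9.57% of all windows, and 1 held the NRF1 motif, against 1.87%. Of all 63 members with a window, 4 held an E-box (6.35%) and 2 the NRF1 motif (3.17%). None of the 11 held TGACGTCA, the cAMP response element, or TGANTCA, the AP-1 site, which were in 3.07% and 5.15% of all windows. None of the 4 fallen members with a window held any of these 4 motifs. Both strands were searched, all 4 motifs read the same on both, and no match overlapped another in the sequences shown. The matches describe these letters only, and the motifs were picked with the results known.

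Among the acetyltransferases, Kat5 and Kat8 rose in hair cells, and the other 5 members were not called. Kat5 (chr19:5603014-5610237, GENCODE M21 on GRCm38, as for all gene positions here) encodes Tip60, which acetylates histones H4 and H2A and takes part in the response to DNA breaks. Its scores were 37.0, 35.6 and 33.2 in control and 56.8, 64.9 and 58.95 in treated hair cells, so that each treated replicate lay above each control. The log2 change was 0.77 ± 0.08 (SE), a 1.71-fold increase (limma adjusted p = 6.53e-05). Exons of Kat5 overlap those of Rnaseh2c on the other strand over 426 bp. The use of strand in counting is not given in the sources used here, so reads of the pair may be mixed. Rnaseh2c went from 19.9 to 14.4 in hair cells (log2 -0.48, limma adjusted p = 0.0135).

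Kat8 encodes the H4K16 acetyltransferase and went from 20.9 ± 1.4 to 26.1 ± 1.2 (SD, n = 3; log2 0.32, limma adjusted p = 0.0338). It is named after its values were seen, and its call was lost in 5 of the 6 fits without 1 hair cell replicate, all but that without control replicate 2. Kat2a and Kat2b, the Gcn5 and Pcaf enzymes of SAGA and ATAC coactivators, had log2 differences of -0.04 each. Kat6a, with the highest mean score of the family, went from 202 ± 1.9 to 220 ± 29.8, and Kat6b had a difference of 0.00. Neither was called.

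Among the sirtuins, Sirt1 alone was called, and it rose more than any other member. Sirt1 (chr10:63319005-63381704) is a nuclear deacetylase of histones, p53 and other factors, linked to metabolism and stress resistance. Its scores were 22.9, 23.8 and 26.1 in control hair cells and 59.5, 69.2 and 54.4 after gentamicin. Every treated replicate lay above every control, far outside their spread. The log2 change was 1.33 ± 0.10, or 2.51-fold (95% interval 1.12 to 1.54 on the log2 scale, limma adjusted p = 1.56e-05). The nuclear Sirt7 went from 37.8 ± 2.1 to 47.1 ± 0.86 without overlap (log2 0.32, limma adjusted p = 0.0474) but missed the unadjusted threshold. The mitochondrial Sirt3, Sirt4 and Sirt5 had differences of -0.01, -0.18 and 0.11, the nuclear Sirt6 of -0.11, and the mainly cytoplasmic Sirt2, the most abundant sirtuin, of 0.02 (95% interval -0.10 to 0.14).

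Of the 11 classical deacetylases, Hdac4 alone was called. Class I enzymes Hdac1 and Hdac2, the catalytic subunits of the NuRD, Sin3 and CoREST complexes, were at 108 ± 5.3 and 142 ± 7.4 in control hair cells and at 112 ± 5.9 and 142 ± 6.8 in treated ones. Their log2 differences were 0.05 (95% interval -0.13 to 0.22) and 0.00 (-0.14 to 0.14). The class IIa enzymes move between nucleus and cytoplasm with signaling and bind Mef2 factors. Hdac4 fell from 66.7, 65.5 and 67.8 to 44.5, 53.4 and 58.5, with no overlap (log2 -0.36 ± 0.10, limma adjusted p = 0.0145). This call was lost on rescaling by total reads and in the fits without control replicate 3 or gentamicin replicate 1. Hdac5, Hdac7 and Hdac9 had differences of -0.20, -0.20 and 0.30, none of them called.

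Of 17 demethylases, 4 rose and none fell in hair cells. The counts were 2 of 6 among those known for H3K4, 1 of 8 for H3K9 and H3K36 and 1 of 2 for H3K27, with Kdm8 in none of these groups. Kdm6a (chrX:18162575-18279936), also called Utx, removes methyl groups from H3K27, the mark laid by Polycomb, and its gene is on the X chromosome. Its scores were 96.3, 89.0 and 93.9 in control and 138, 136 and 156 with gentamicin, again without overlap. The log2 change was 0.62 ± 0.08, or 1.54-fold (limma adjusted p = 0.000228). Its relative Kdm6b, or Jmjd3, was at 330 ± 10.7 and 341 ± 49.0, a difference of 0.04 (95% interval -0.20 to 0.27).

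Of the H3K4 demethylases, Kdm5a rose from 149 ± 3.5 to 194 ± 8.9 (log2 0.38, limma adjusted p = 0.00211) and Kdm1b from 44.0 ± 2.1 to 55.4 ± 0.61 (0.33, limma adjusted p = 0.014). The Kdm1b call was lost without control replicate 2. Exons of Kdm1b overlap Dek on the other strand over 498 bp, and Dek had a difference of 0.27. Kdm5b, the most abundant demethylase by score, had a difference of 0.08, and the X-linked Kdm5c of -0.15. Kdm5d lies on the Y chromosome and ranged from 18.2 to 27.3 in control and from 26.5 to 43.1 with gentamicin, with no call. Xist, the RNA of the inactive X in female cells, ranged from 864 to 1461 and from 251.1 to 779 in the same replicates. The sex of the animals is not given in the labels, and its part in the values of Kdm6a and the Kdm5 genes was not tested. Of the H3K9 demethylases, Kdm4c rose from 61.4 ± 1.6 to 75.6 ± 1.1 (0.30, limma adjusted p = 0.0129), a call lost without control replicate 3. Kdm4a, Kdm4b and the scarce Kdm4d had differences of -0.04, -0.10 and -0.33 and were not called.

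Among the bromodomain readers, Brd2 and Brd8 rose in hair cells. Brd2 (chr17:34112023-34122634) and Brd3 are BET proteins, which bind acetylated histones and promote transcription. Brd2 scores were 292, 314 and 303 in control and 550, 619 and 544 with gentamicin. The treated replicates all lay far above the controls, at a log2 change of 0.91 ± 0.07 or 1.88-fold (limma adjusted p = 2.11e-05). Brd3 went from 202 ± 1.5 to 177 ± 3.3 (-0.19, limma adjusted p = 0.0476). Its replicates did not overlap, but it missed both the fold and the p threshold.

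Brd8, a subunit of the Tip60 complex, rose from 99.05 ± 3.5 to 124 ± 4.9 (log2 0.32, limma adjusted p = 0.00661). Brd7 of PBAF and Brd9 of the noncanonical BAF complex had differences of -0.14 and -0.02.

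**Figure D2:**
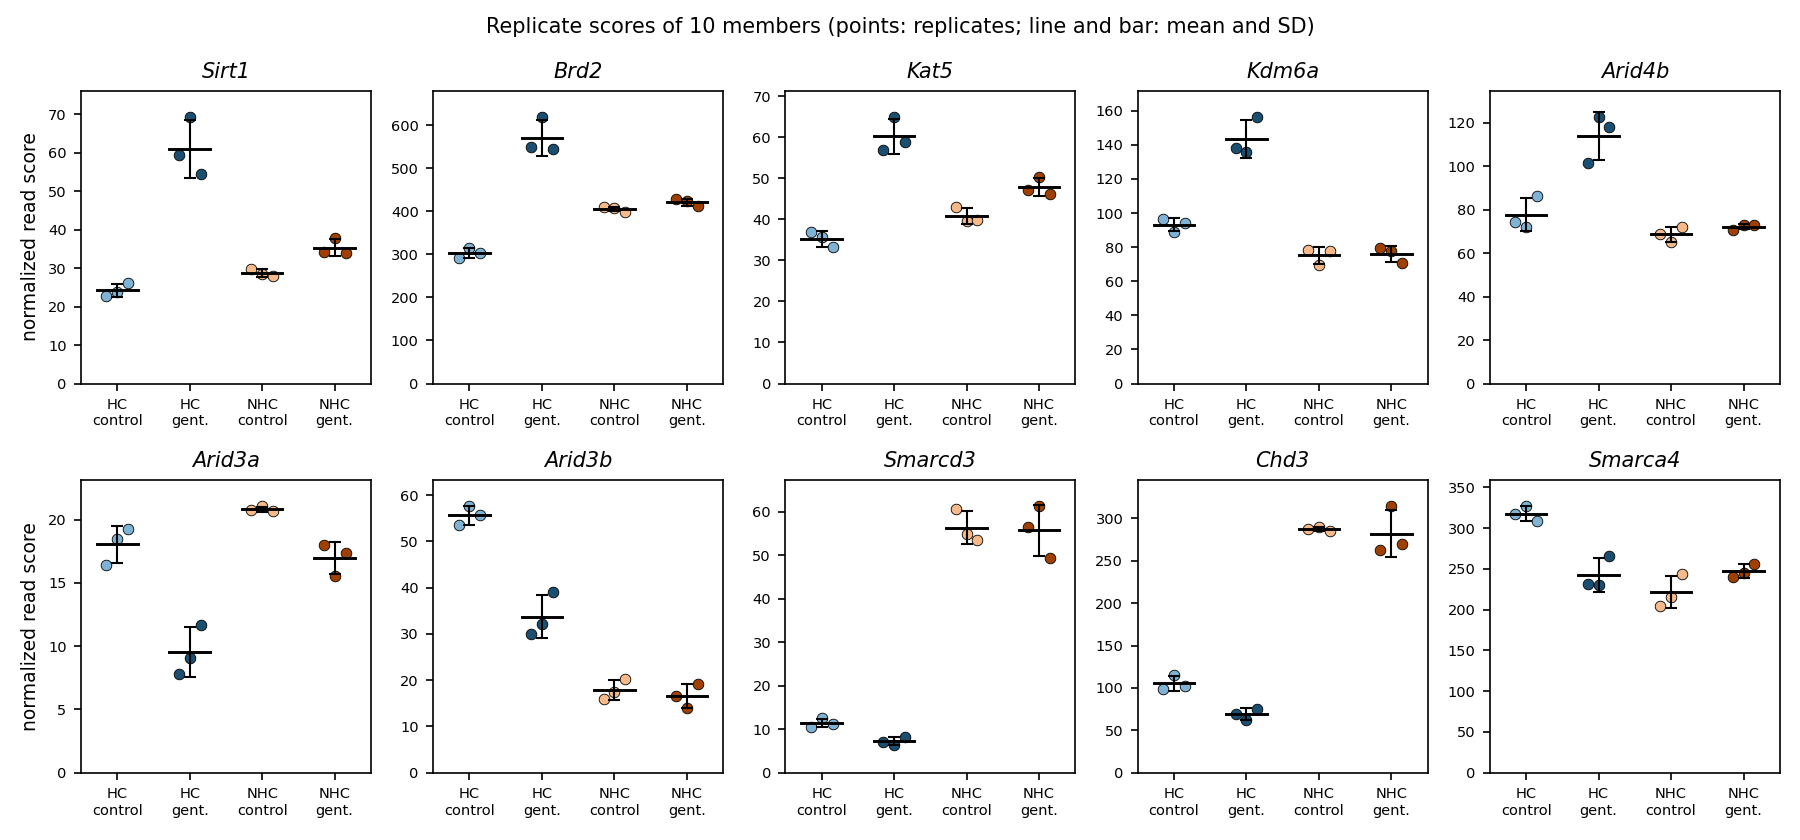
Normalized read scores (vertical axes, from 0) of 10 members in the 4 groups (horizontal axes; HC hair cells, NHC non-hair cells, gent. gentamicin). Points are replicates, and the line and bar are the mean and SD (n = 3). In hair cells, treated replicates lie above all controls for Sirt1, Brd2, Kat5, Kdm6a and Arid4b, at 54.4 to 69.2 against 22.9 to 26.1 for Sirt1, and below all controls for Arid3a, Arid3b, Smarcd3, Chd3 and Smarca4.

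The remodeler subunits of the BAF and PBAF complexes numbered 14 among the members, from the Smarc, Arid and Brd families. None of them rose and 2 fell in hair cells, against 12.7% and 14.8% of all genes tested. Of their differences 4 were positive and 10 negative, against 6445 and 9625 over the 16076 genes tested. Their median was -0.06, against -0.09 over all genes. When scores were rescaled by total reads, the median of the subunits turned to 0.03, with 1 up and 2 down, and that of all genes to -0.01. Smarca4 (chr9:21616169-21704230), or Brg1, is the ATPase of the complex and was the most abundant Smarc gene by score. It fell from 317, 327 and 308 to 231, 231 and 266, with no overlap (log2 -0.39 ± 0.08, 1.31-fold lower, limma adjusted p = 0.00417). Its alternative Smarca2, or Brm, was at 38.3 ± 4.6 and 30.2 ± 2.6 and was not called (-0.34, limma adjusted p = 0.114).

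Smarcd3 encodes Baf60c, a subunit best known from heart and muscle. It fell from 10.6, 12.6 and 11.2 to 7.18, 6.31 and 8.13 (log2 -0.67 ± 0.12, limma adjusted p = 0.00176). All treated replicates were below all controls. Exons of Smarcd3 overlap those of Chpf2 on the other strand over 642 bp, and Chpf2 went from 34.7 to 27.5 in hair cells (-0.33, limma adjusted p = 0.0072). The other variants Smarcd1 and Smarcd2 had differences of -0.08 and -0.04.

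The core scaffolds Smarcc1 (Baf155) and Smarcc2 (Baf170) went from means of 259 to 223 and from 268 to 226. Neither had overlapping replicates, but their log2 differences of -0.22 and -0.25 stayed under a fold of 1.2 (limma adjusted p = 0.0349 and 0.0234). Arid1a and Arid1b, the large DNA-binding subunits of canonical BAF, had differences of 0.11 and 0.24, not called. Outside these complexes, Smarcad1, a remodeler that acts at DNA breaks and in heterochromatin, rose from 71.9 ± 7.6 to 93.4 ± 1.4 (0.38, limma adjusted p = 0.00468).

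Among the Chd remodelers, Chd3 and Chd7 fell and Chd9 rose. Chd3 (chr11:69343273-69369406) is an alternative ATPase of NuRD, the nucleosome remodeling and deacetylase complex. Its scores fell from 98.3, 115 and 102 to 69.2, 61.6 and 75.8, without overlap (log2 -0.61 ± 0.09, limma adjusted p = 0.000738). Chd4, the main ATPase of NuRD and the member with the highest score of all, was at 951 ± 31.6 and 943 ± 76.8 (-0.01, 95% interval -0.21 to 0.18). The neuronal Chd5 went from 10.7 ± 2.0 to 6.56 ± 0.54 and was not called (-0.70, limma adjusted p = 0.151).

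Chd7 fell from 335, 319 and 302 to 219, 266 and 264 in hair cells (log2 -0.36 ± 0.08, limma adjusted p = 0.00839), and the groups did not overlap. The call was lost on rescaling by total reads. Chd9 rose from 105 ± 3.6 to 132 ± 15.6 (0.32, limma adjusted p = 0.0122), a call lost without control replicate 1, gentamicin replicate 2 or gentamicin replicate 3. Chd6 and Chd8, of the same subfamily, had differences of -0.20 and 0.00.

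The Arid genes, which share an AT-rich interaction domain but little else in function, split both ways. Arid3a and Arid3b, transcription factors that bind AT-rich DNA, both fell. Arid3a (chr10:79927043-79955018) went from 16.4, 18.5 and 19.2 to 7.84, 9.09 and 11.7, each below every control (log2 -0.94 ± 0.14, 1.91-fold lower, limma adjusted p = 0.000632). Arid3b went from 53.6, 57.6 and 55.7 to 30.0, 32.2 and 39.1, also without overlap (-0.73 ± 0.14, limma adjusted p = 0.00238). Their relative Arid3c rose (0.57, limma adjusted p = 0.0159), but at scores of 2.20 to 3.76 it is among the scarcest members. Arid3c is named after its values were seen, and its call was lost with an offset of 0.1 and without control replicate 3, gentamicin replicate 1 or gentamicin replicate 2. Arid4b, a partner of the Sin3 deacetylase complex, rose from 74.3, 72.3 and 86.4 to 101, 123 and 118 with no overlap (0.55 ± 0.09, limma adjusted p = 0.000869).

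The sums of mesenchymal and glial markers given above, and also those of supporting and hair cell markers, were lower in treated than in control hair cells. From 409 genes, the share of non-hair cell RNA in the hair cell replicates was estimated at 2.88 to 4.99% in control and 1.58 to 1.94% with gentamicin. After this share was subtracted from each replicate, all 20 members kept their call, among 21 members called against 26.8% of all genes (12.9% up and 13.9% down). The change of Smarcd3 was then -0.64, of Chd3 -0.60, of Arid3a -0.95, of Smarca4 -0.41 and of Sirt1 1.35. The 409 genes were picked as far higher in non-hair cells than in these same hair cell samples, which by itself kept the estimated share low. Calls kept after so small a subtraction do not show whether such RNA had a part in them. The share also does not measure RNA of cells that such genes do not mark. The supporting cell list, which did not set the populations apart, is not covered in this way. Whether such RNA had a part in the calls was not tested.

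In non-hair cells, gentamicin changed 3 members, 3.61% against 5.44% of all genes tested (3.18% up and 2.26% down). Chd1l, an ATPase drawn to DNA damage by poly(ADP-ribose), rose from 20.2, 16.6 and 17.0 to 25.3, 25.5 and 22.2 (log2 0.45 ± 0.10, limma adjusted p = 0.0805). Hdac1 rose from 120, 98.4 and 116 to 133, 140 and 141 (0.31, limma adjusted p = 0.104), and Hdac5 fell from 117, 132 and 110 to 98.7, 100.8 and 96.3 (-0.28, limma adjusted p = 0.128). Replicates did not overlap for any of these. None of the members had a limma adjusted p under 0.05, against 0.342% of all genes (0.236% up and 0.106% down), and 16 had an unadjusted p under 0.05, 11 higher and 5 lower, against 17.1% of all genes (8.86% and 8.27%). Without gentamicin replicate 2 the count was again 3, against 2.85% of all genes. It was 6 without control replicate 1 (8.5% of all genes) and 1 without control replicate 2 (2.56%). With the non-hair cells fitted alone it was 0, against 2.38% of all genes. The replicates did not overlap for 22 members, 15 higher and 7 lower, against 17.7% of all genes (10.1% and 7.67%). Summed scores of 8 endothelial markers were 210.0 to 334 in control and 339 to 482 in treated non-hair cells, with no marker at 0 and Egfl7 (1.38) and Cldn5 (1.12) called higher. Their part in the changes was not tested.

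The hair cell risers were also followed in the non-hair cells. Sirt1 was at 29.9, 28.5 and 27.99 in control and 34.2, 37.9 and 33.8 in treated non-hair cells, not overlapping but not called (log2 0.29, limma adjusted p = 0.169). Kat5 behaved in the same manner, with 43.1, 39.7 and 39.9 against 47.2, 50.3 and 46.2 (0.23, limma adjusted p = 0.172). For Brd2 and Kdm6a the differences in non-hair cells were 0.06 and 0.02.

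Whether a response differed between the populations was tested as the difference of the log2 changes. At a limma adjusted p under 0.05 it differed for 14 members, 16.9% against 13.4% of all genes, with 9 higher in hair cells (6.85% of all genes) and 5 lower (6.57%). The hair cell response exceeded that of the non-hair cells by 1.03 for Sirt1, 0.86 for Brd2, 0.60 for Kdm6a, 0.54 for Kat5 and 0.48 for Arid4b. The same held for Arid3c (0.74), Hdac11 (0.53), Kdm4c (0.37) and Brd8 (0.34), each of which lost the call in more than 10 of the settings tried. The hair cell response was the lower one by log2 differences of -0.65 for Smarcd3, -0.58 for Chd3, -0.55 for Smarca4, -0.40 for Smarcc1 and -0.35 for Smarcc2. Of 20 settings tried, Arid4b and Smarcc1 kept the call in 15 each, Smarcd3 in 12 and Smarcc2 in 6. With scores rescaled by total reads, Smarcc1 and Smarcc2 lost the call. Sirt1, Brd2, Kdm6a, Kat5, Chd3 and Smarca4 passed in every setting tried. The count was 6 (7.81% of all genes) to 17 (14.8%) when 1 replicate was left out. This comparison shares its samples with both gentamicin comparisons and is no separate evidence for them.

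**Figure D3:**
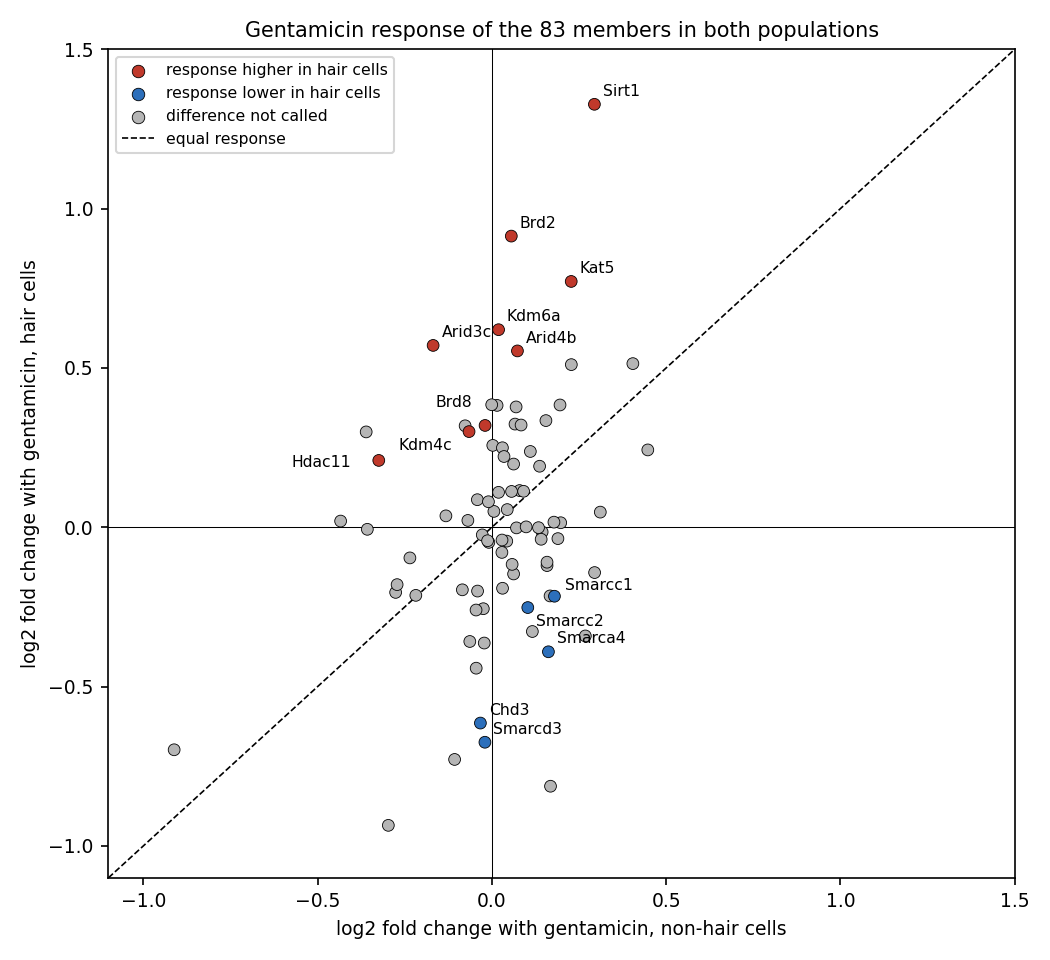
Log2 fold change with gentamicin in non-hair cells (horizontal axis) and hair cells (vertical axis) for the 83 members, with the dashed line marking an equal response. Red and blue points are the 9 and 5 members whose response was higher or lower in hair cells at a limma adjusted p under 0.05. Sirt1 is at 1.33 in hair cells and 0.29 in non-hair cells, and Smarca4 is at -0.39 and 0.16.

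Without drug, 56 members differed between hair cells and non-hair cells at a limma adjusted p under 0.05 with a fold above 1.2, which is 67.5% against 71.1% of all genes. Of these, 37 were higher in hair cells (30.2% of all genes) and 19 lower (40.9%). The median log2 difference was 0.21 over the members and -0.12 over all genes tested. The replicates did not overlap for 72 members, 46 higher and 26 lower, against 79.2% of all genes (34.5% and 44.6%). Median-of-ratios scaling moved the median of all genes by over 0.1, to -0.01, and gave 45 higher and 17 lower. Beside the all-gene median of -0.12, the families with the highest medians were Hdac at 0.41 and Kdm at 0.31, and those with the lowest were Brd at -0.12 and Kat at -0.21. The Brd median turned to 0.00 under median-of-ratios scaling. The control hair cells also serve as the reference of the gentamicin comparison.

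**Figure D4:**
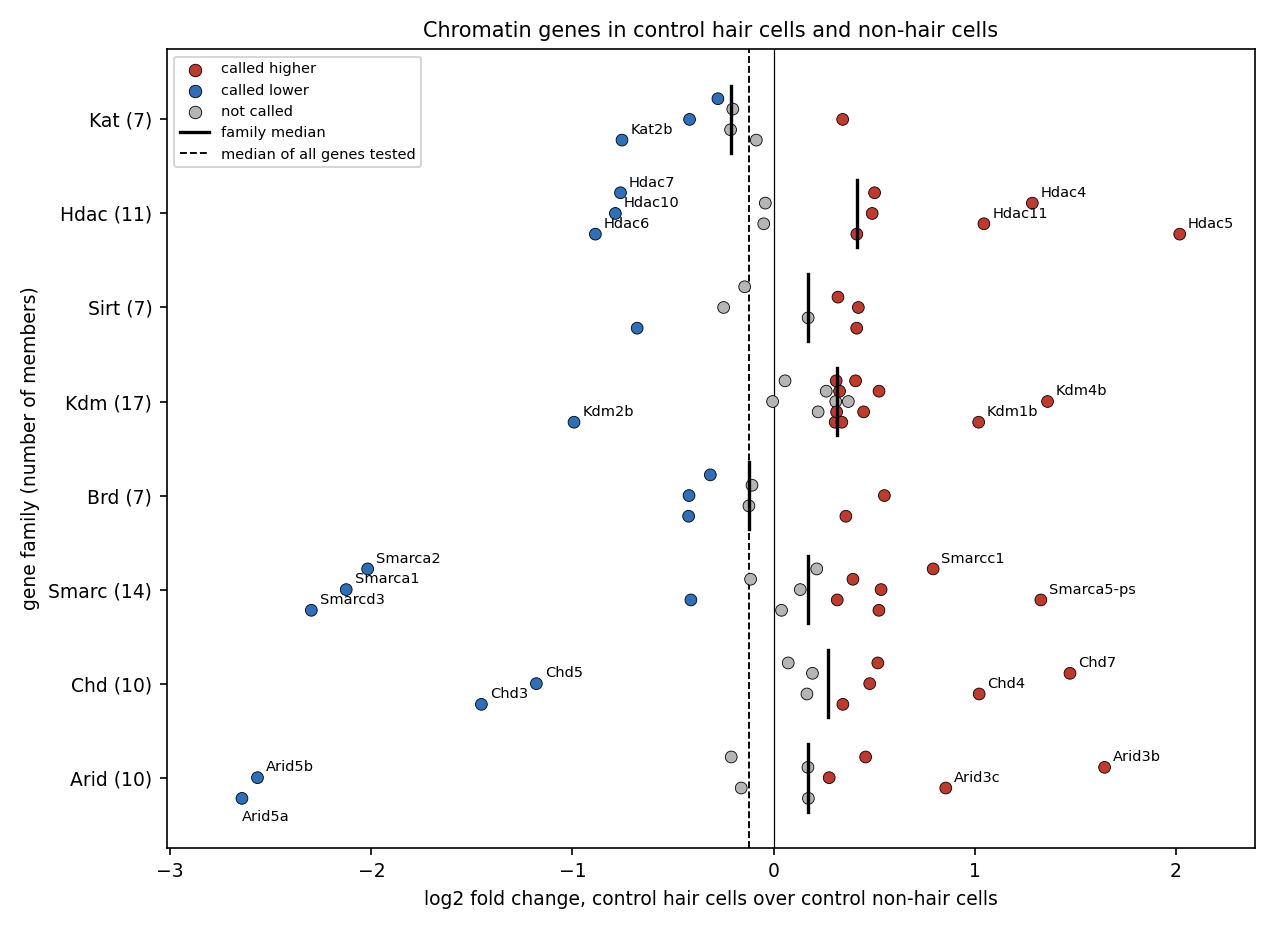
Log2 fold change of control hair cells over control non-hair cells (horizontal axis) for the 83 members, by family (vertical axis). Red points were called higher and blue points lower in hair cells, grey points were not called, short bars are family medians, and the dashed line is the median of all genes tested, -0.12. Hdac5 lies at 2.02 and Arid5a at -2.64, and the Smarc, Chd and Arid families have members at both ends.

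Several deacetylases and remodelers were higher in control hair cells. The class IIa deacetylase Hdac5 was at 498, 511 and 445 in control hair cells and at 117, 132 and 110 in control non-hair cells (log2 2.02 ± 0.08, 4.05-fold, limma adjusted p = 1.3e-09). Hdac4 of the same class was 2.44-fold higher, at 66.6 ± 1.1 against 27.3 ± 0.98, and the lone class IV enzyme Hdac11 was 2.06-fold higher. Hdac7, also of class IIa, was instead lower in hair cells (-0.76, limma adjusted p = 6.63e-05), while Hdac9 was higher (0.49, limma adjusted p = 0.0246), a call lost without control replicate 3 of either population. The class IIb enzymes Hdac6 and Hdac10, named after their values were seen, were also lower, at -0.89 and -0.79. Of the 11 Hdac genes 6 were higher and 3 lower, against 30.2% and 40.9% of all genes. Hdac1 and Hdac2 differed by -0.04 (95% interval -0.22 to 0.13) and -0.05 (-0.19 to 0.09).

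Chd7 was at 319 ± 16.8 in control hair cells and 115 ± 5.1 in control non-hair cells, 2.78-fold higher (limma adjusted p = 2.95e-08). Chd4 was 2.03-fold, Kdm4b 2.57-fold, Kdm1b 2.03-fold and Arid3b 3.13-fold higher in hair cells. The pseudogene Smarca5-ps was also higher (1.33), as was Smarca5 itself (0.53). None of these overlapped between the populations.

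The members lower in hair cells included alternative subunits of the same complexes. Smarcd3 was at 10.6, 12.6 and 11.2 in hair cells and at 60.7, 55.0 and 53.4 in non-hair cells, 4.92-fold lower (limma adjusted p = 1.27e-08). Chpf2, whose exons overlap those of Smarcd3, was at 34.7 against 75.3 (log2 -1.12), and reads of the pair may be mixed. Smarca2 was 4.05-fold lower, at 38.3 ± 4.6 against 156 ± 22.2, and Smarca1, an ISWI ATPase also called Snf2l, was 4.36-fold lower. Chd3 was 2.74-fold lower, at 105 ± 8.8 against 288 ± 2.7, and Chd5 2.27-fold lower. Arid5a and Arid5b, known from inflammatory RNA control and from mesenchymal and fat cells, were 6.25-fold and 5.92-fold lower. Kdm2b, which targets Polycomb to CpG islands, was 1.99-fold lower. Summed scores of 8 mesenchymal markers were 6196 to 8357 in control non-hair cells against 296 to 611 in hair cells, and those of 12 cell division genes were 454 to 509 against 76.5 to 83.02. Their part in these differences was not tested.

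Of the sirtuins, Sirt3, Sirt5 and Sirt6 were higher in hair cells by log2 0.41, 0.42 and 0.32, and Sirt2 was lower, at -0.68. The Sirt5 call was lost without hair cell control replicate 2 or non-hair cell control replicate 3. Of the BET genes, Brd3 was higher by 0.55 and Brd2 was lower, at -0.42. Kat6a was higher (0.34), while Kat2a and Kat2b were lower, at -0.42 and -0.75.

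The balance between related subunits was compared on scores per kilobase of exon, with the added 1 taken off, within each replicate, where the scaling of the replicates cancels. Smarca2 stood to Smarca4 at a log2 ratio of -3.39, -3.13 and -3.34 in control hair cells and of -0.43, -0.62 and -1.09 in control non-hair cells. Control hair cells had 9.75 times as many Smarca4 as Smarca2 reads per kilobase, and control non-hair cells 1.64 times as many. With gentamicin the mean log2 ratio in hair cells was -3.24 ± 0.08 against -3.29 ± 0.14 (SD, n = 3), within the spread between replicates.

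The ratio of Smarcd3 to Smarcd1 was -2.52 ± 0.16 in control hair cells and 0.01 ± 0.08 in control non-hair cells. With gentamicin it came to -3.21 ± 0.15 in hair cells, below every control replicate. Reads of Chpf2 may be mixed into this ratio. Chd3 to Chd4 gave -3.30 ± 0.17 in hair cells and -0.82 ± 0.07 in non-hair cells, and -3.91 ± 0.18 in treated hair cells, again without overlap with control. Smarcc2 to Smarcc1 gave 0.39 ± 0.05 in hair cells without the drug and 0.35 ± 0.05 with it. Kdm6b to Kdm6a averaged 1.67 in control hair cells and 1.08 with gentamicin, with replicates of 1.61 to 1.78 against 0.85 to 1.39. These ratios are given as a description and were not tested.

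**Figure D5:**
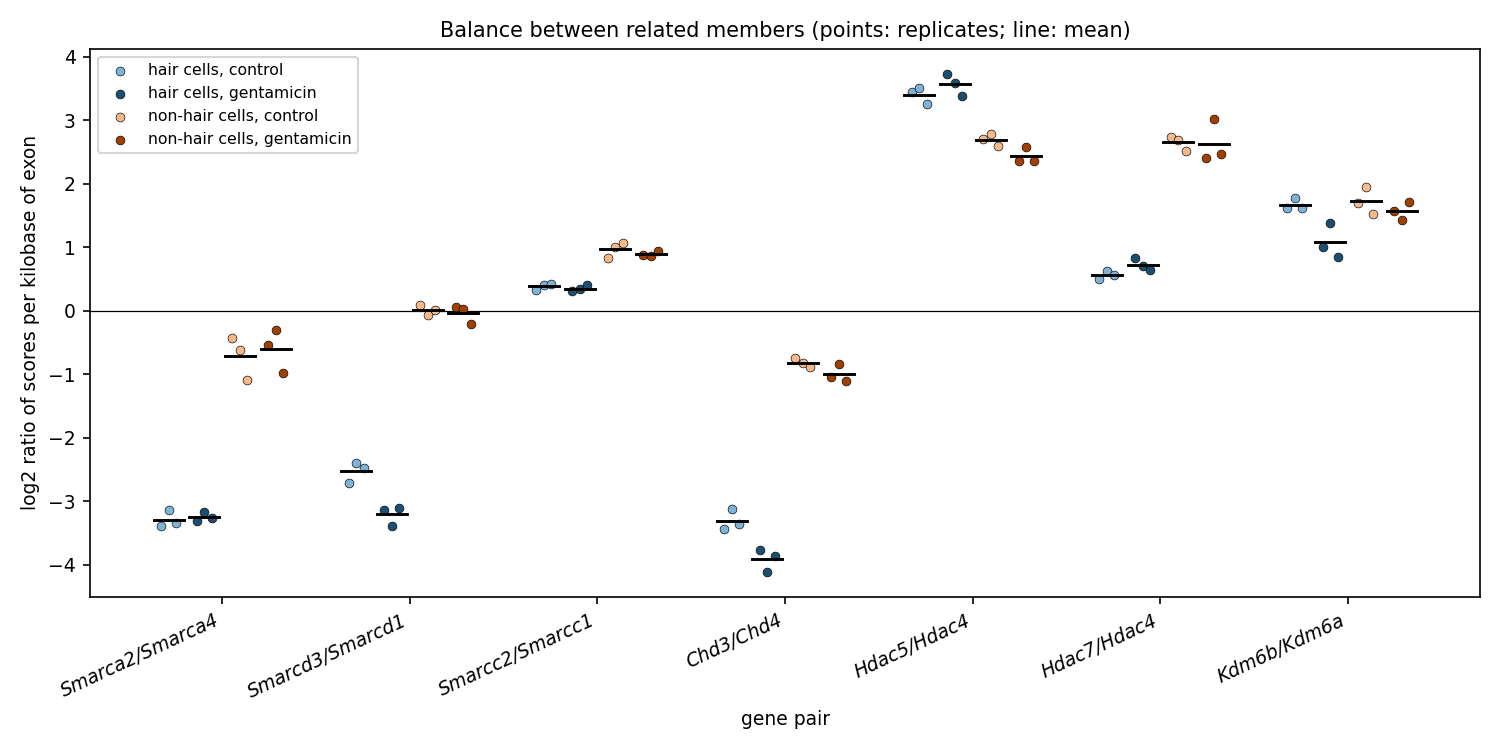
Log2 ratio of scores per kilobase of exon (vertical axis) for 7 pairs of related members (horizontal axis) in each of the 4 groups. Points are replicates and lines are means (n = 3). Smarca2/Smarca4, Smarcd3/Smarcd1 and Chd3/Chd4 lie lower in hair cells than in non-hair cells, at -3.29, -2.52 and -3.30 against -0.71, 0.01 and -0.82 in the control groups.

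The members are long genes of high score. Their median exon length was 5.06 kb against 3.26 kb over the genes with a length, from 2.25 kb for Sirt to 8.80 kb for Chd. Per kilobase the median score was 15.97 in control hair cells and 17.1 in control non-hair cells, against 7.49 and 8.23 over all genes. The highest per kilobase were Chd4 in hair cells, at 141, and Brd2 in non-hair cells, at 81.7. By family the median in hair cells ran from 8.70 for Arid to 29.6 for Smarc. Genes with at least 4.91 kb of exon included 47 members, of which 13 were called in hair cells, 8 up and 5 down, in a length class where 11.5% of all genes were called up and 20.6% down.

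Other chromatin genes, from 9 lists of 148 measured genes, were called in hair cells at 37.2%, with 36 up and 19 down, against 27.5% of all genes (12.7% up and 14.8% down). The lists were chosen with earlier results of these data known. Their shares therefore describe the genes listed and are no test of chromatin genes as a class. Of 24 Polycomb genes, which silence genes through H3K27 methylation and H2A ubiquitination, 9 rose and 1 fell, and Bmi1 rose by 0.77 on the log2 scale. The fallen gene was Phc2 (-0.41). Of 11 other remodelers 6 rose, led by Btaf1 (0.64) and Rsf1 (0.60), and Rad54l2 fell. Of 19 other bromodomain genes 7 rose, led by Baz1a (0.75) and Trim33 (0.73), and Baz2b fell.

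Of 26 histone methyltransferases 7 rose and 4 fell. Prmt6, an arginine methyltransferase, went from 40.0 ± 2.3 to 103 ± 7.0 (log2 1.37, limma adjusted p = 4.23e-05), and Suv39h2 rose by 0.87, while Carm1 and Nsd1 fell (-0.49 and -0.44). Of 30 partners of deacetylase complexes 4 rose, with Rcor3 (0.98) and Sap30 (0.66) the largest, and 6 fell, with Phf21a (-0.79) and Sin3b (-0.52) the largest. Of 16 further BAF and PBAF subunits Bcl7b (1.11) and Bcl11a (0.59) rose, and Gltscr1 (-0.40) and Phf10 (-0.34) fell. The acetyltransferase Ep300 rose (0.41) while its close relative Crebbp fell (-0.46), among 6 genes of that list. Of 6 other demethylases Jmjd1c and Phf2 fell (-0.34 and -0.29), and of 10 DNA methylation genes 0 rose and 1 fell.

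In non-hair cells 6 of these 148 genes rose and 3 fell, against 3.18% and 2.26% of all genes. The response differed between the populations for 33 of them, 21 higher and 12 lower in hair cells. Of the 24 Polycomb genes 8 had the higher response in hair cells and 0 the lower, against 6.85% and 6.57% of all genes.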

How the data were processed

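Sorted cells were sequenced as 50 bp single-end polyadenylated reads. The authors trimmed and aligned them to mm10 with TopHat 2 in PartekFlow, and whether counting used strand is not given in the sources used here. The methods name RPKM, but the deposited values are normalized read scores: 1 was added, and no division by gene length was seen. The value of 1 read was taken as the most frequent low score, tuned to give the most whole reads. Dividing by it gave whole reads, within 0.02, for 73.9 to 75.9% of low values, too few for a count test. Read numbers given here are therefore estimates. No value column was left unused.

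Log2 scores of all 4 groups were fitted together in limma 3.58.1 (R 4.3.3) with a trend, over 16076 genes with at least 100 recovered reads. Gentamicin calls needed an unadjusted p under 0.01 and a fold above 1.2, differences between populations an adjusted p under 0.05 and a fold above 1.2, and the difference of responses an adjusted p under 0.05. Adjustment was by Benjamini-Hochberg over all genes, intervals are 95%, and the fit was tested on simulated data. Replicate numbers, taken from column names, paired the control groups of both populations (correlations of deviations 0.20 to 0.32) but not the drug comparisons.

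Members named were up to 8 called per direction and comparison with the largest change and a mean score of at least 5, the highest-scoring member of each family, and all members of fixed paralog groups. From other chromatin lists, up to 2 per direction were named. Members and lists were chosen with earlier results of these data known. Gene positions were matched to GENCODE M21, and promoters came from RefSeq. Some genes of the lists are not reported here.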

Additional observations from a re-analysis of the deposited data

Results flagged for a closer look

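For 14 members the response to gentamicin differed between hair cells and non-hair cells by the test of the difference itself, in 1 limma model over the 4 groups at an adjusted p under 0.05. This was 16.9% of the members, against 13.4% of all genes. The hair cell response minus the non-hair cell response was, on the log2 scale, 1.03 for Sirt1, 0.86 for Brd2, 0.74 for Arid3c, 0.60 for Kdm6a, 0.54 for Kat5, 0.53 for Hdac11, 0.48 for Arid4b, 0.37 for Kdm4c and 0.34 for Brd8. It was -0.35 for Smarcc2, -0.40 for Smarcc1, -0.55 for Smarca4, -0.58 for Chd3 and -0.65 for Smarcd3. Of 20 settings tried, Kdm4c kept the call in 5, and Hdac11, Brd8 and Smarcc2 in 6 each. Arid3c kept it in 8 of 19. Smarcd3 kept it in 12 of 20, and Arid4b and Smarcc1 in 15 each. Sirt1, Brd2, Kdm6a, Kat5, Chd3 and Smarca4 kept it in all 20. Hdac11 scores went from a mean of 104 to 121 in hair cells and from 50.6 to 40.5 in non-hair cells, and neither change was called. Smarcc1 went from 259 to 223 and from 149 to 169, and Smarcc2 from 268 to 226 and from 231 to 248, again with neither change called. Groups of 3 replicates are too small for a test of single outlying replicates.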

How the results depend on the processing

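The count of 20 members called in hair cells stayed within 1.5 times under every scaling, offset, read minimum and omission tried. When 1 replicate was left out it was 17 to 21, against 20.5 to 25.7% of all genes. It was 8 at a fold of 1.5, against 12.9% of all genes. At an adjusted p under 0.05 with no fold threshold it was 33, against 33.2%. In all those scalings, filters and omissions the 20 kept their sign, and 13 kept their call. The 3 calls in non-hair cells became 5 with median-of-ratios scaling, against 5.33% of all genes. They became 0 with only the 2 groups compared (2.38% of all genes), at a fold of 1.5 (1.36%) or at an adjusted p under 0.05 (0.342%). Leaving out 1 replicate gave 1 to 6, the 6 without control replicate 1 (8.5% of all genes) and the 1 without control replicate 2 (2.56%). The 14 differing responses ranged from 6 (7.81% of all genes) to 17 (14.8%) in the same way. Without hair cell control replicate 1, 2 or 3 the count was 7 (8.55, 7.23 and 9.64% of all genes). It was 9 without hair cell gentamicin replicate 1 (10.6%), 6 without gentamicin replicate 2 (7.81%) and 17 without gentamicin replicate 3 (14.8%). Among non-hair cells it was 9 without control replicate 1 (12.5%) and 7 without control replicate 2 (8.01%). It was 9 without non-hair cell gentamicin replicate 1 or 2 (8.92 and 10.7%). The 56 differences between populations became 24 at a fold of 1.5, against 53.1% of all genes. They were 52 to 56 when 1 replicate was left out, against 67.7 to 69.4%. A replicate block gave 21 calls in hair cells (28.7% of all genes) and 3 in non-hair cells (5.46%). It gave 14 differing responses (14.3%), of which 12 were shared, and 57 differences between populations (71.6%) by adding Kdm4d. The subtraction of the non-hair cell share was chosen after seeing the data. Depth limits the scarcest members: Arid3c, with scores under 4, lost its call with an offset of 0.1.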
